A study of Mus musculus with 32 samples.

Results

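The 9 kallikrein genes Klk5, Klk6, Klk7, Klk8, Klk9, Klk10, Klk11, Klk13 and Klk14 and the inhibitor gene Spink5 were examined on 32 arrays of mouse skin. These 10 genes were taken by symbol from the platform annotation, out of 19505 genes with a symbol, and each was carried by 1 row of the table. The animals were of the NC/Nga strain, and the arrays held 8 HDM ears, 8 sham ears, 8 HDM back skins and 8 sham back skins, punched from mice kept under SPF conditions. HDM stands as the labels write it, which do not spell it out, and they describe neither the sham procedure nor the age or sex of the animals. The same mouse numbers recur in ear and back skin, and whether such samples came from the same animal is not given in the labels, so the 4 groups may hold fewer than 32 animals.

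Tissue kallikreins are secreted serine proteases whose genes lie side by side in a cluster on mouse chromosome 7. In the epidermis they are made as inactive precursors by granular keratinocytes, activate each other in a cascade, and cut the corneodesmosomes that hold the outermost dead cells together, so that these can be shed. Spink5 encodes LEKTI, a Kazal-type inhibitor secreted by the same cells, which holds kallikreins in check. Loss of the human gene causes Netherton syndrome, in which the skin barrier is lost through unrestrained proteolysis.

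In the RefSeq annotation the 9 genes follow each other in the order Klk14, Klk13, Klk11, Klk10, Klk9, Klk8, Klk7, Klk6 and Klk5, with Klk12 between Klk13 and Klk11. Stretches of 250 bases before the annotated start are shown from RefSeq, build GRCm38.p6, for Klk14, Klk13, Klk10 and Klk5. Klk14 and Klk13 had the largest differences between HDM and sham back skin, Klk10 had a smaller one, and Klk5 had the smallest of the 9. Klk7 and Klk11, whose back skin differences of 1.68 and 1.15 lie on either side of the 1.47 of Klk10, are not shown. Neither is Klk8, with a difference of 4.43 there. Capitals mark CACCC or its reverse complement GGGTG, the core of sites bound by KLF factors, and in Klk10 a match to the STAT-type motif TTCNNNGAA.
Klk14, chr7:43690168-43690417, + strand: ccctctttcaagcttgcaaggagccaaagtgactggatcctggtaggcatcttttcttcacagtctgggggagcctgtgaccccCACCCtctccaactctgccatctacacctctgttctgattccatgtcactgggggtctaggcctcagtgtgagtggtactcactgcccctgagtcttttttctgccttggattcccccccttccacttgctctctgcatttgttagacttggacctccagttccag
Klk13, chr7:43712317-43712566, + strand: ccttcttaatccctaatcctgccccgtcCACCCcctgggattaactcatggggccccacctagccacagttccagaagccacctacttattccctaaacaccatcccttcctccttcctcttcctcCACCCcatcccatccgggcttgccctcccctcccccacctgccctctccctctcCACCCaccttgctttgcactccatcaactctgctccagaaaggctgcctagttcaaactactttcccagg
Klk10, chr7:43780804-43781053, + strand: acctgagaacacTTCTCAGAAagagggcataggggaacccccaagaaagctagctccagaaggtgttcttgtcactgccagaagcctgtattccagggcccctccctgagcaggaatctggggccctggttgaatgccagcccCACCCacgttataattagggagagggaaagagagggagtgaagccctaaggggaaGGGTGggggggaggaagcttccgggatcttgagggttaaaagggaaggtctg
Klk5, chr7:43842019-43842268, + strand: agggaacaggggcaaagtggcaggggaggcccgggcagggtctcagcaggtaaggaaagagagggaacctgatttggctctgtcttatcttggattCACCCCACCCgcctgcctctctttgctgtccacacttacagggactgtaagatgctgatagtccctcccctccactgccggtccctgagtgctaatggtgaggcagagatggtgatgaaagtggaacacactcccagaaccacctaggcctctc
RefSeq gave 11 such windows for the 9 genes, with a pair of starts each for Klk6 and Klk11. CACCC on either strand was found in 8 of the 11 windows, which belong to 8 genes, all but Klk8, and in 52% of all 32851 windows of the same length. The STAT-type letters occurred in 1 of the 11 windows, that of Klk10, and in 7.02% of all windows, and no marked match overlapped another kind of match. The AP-1 motif TGANTCA (6.75% of all windows) and TATAAA (12.4%) had 0 matches in the 11 windows on either strand. These are matches of letters in a short window only.

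Levels are log2 expression values made by the authors with RMA, and whether they were rescaled afterwards is not given in the sources used here, so folds hold only if a step of 1 is a doubling. The background of an array was the median of its negative control rows, between 4.43 and 5.38. Its group mean was highest in sham ears, at 5.20, against 4.82 in HDM ears, 4.84 in HDM back skins and 4.72 in sham back skins. All 10 genes lay above it on all 8 arrays of each group, except Klk13 on 7 of 8 sham ears and Klk14 on 5 of 8 HDM ears, 0 of 8 sham ears and 7 of 8 sham back skins. The measured markers of basal and of suprabasal keratinocytes, 5 of each, were above background on some arrays of all 4 groups. Of 5 cartilage markers, Acan and Comp were above background on every ear array, Col9a1 on 4 of 8 HDM ears and 7 of 8 sham ears, and Col2a1 and Matn1 on none. Among sham back skins, mice 1 and 2 stood apart: the mean of 12 hair follicle genes was 7.94 to 12.23 on their arrays, against 13.17 to 16.34 on the other 6, and that of 7 neutrophil genes 8.31 to 8.55, against 5.54 to 6.69.

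The first comparison asked how the proteases and their inhibitor stood in HDM ears against sham ears. All 9 kallikrein genes rose and Spink5 fell (limma, Benjamini-Hochberg adjusted p under 0.05), where over all 22206 rows 16.4% were called higher and 15.5% lower. The kallikreins' median difference was 2.91 on the log2 scale, against -0.02 over all rows. The second comparison asked the same of back skin, where all 9 kallikreins rose as well and Spink5 was not called, against 6.18% of all rows called higher and 8.56% called lower. There the kallikreins' median difference was 3.68, against 0.01 over all rows. HDM and sham arrays did not overlap for 7 of the 9 kallikreins in ear and 7 of 9 in back skin, and over all rows with a symbol this held for 7.98% and 4.33%. All values are from bulk tissue, in which fewer cells of a type and less RNA per cell cannot be told apart.

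**Figure D1:**
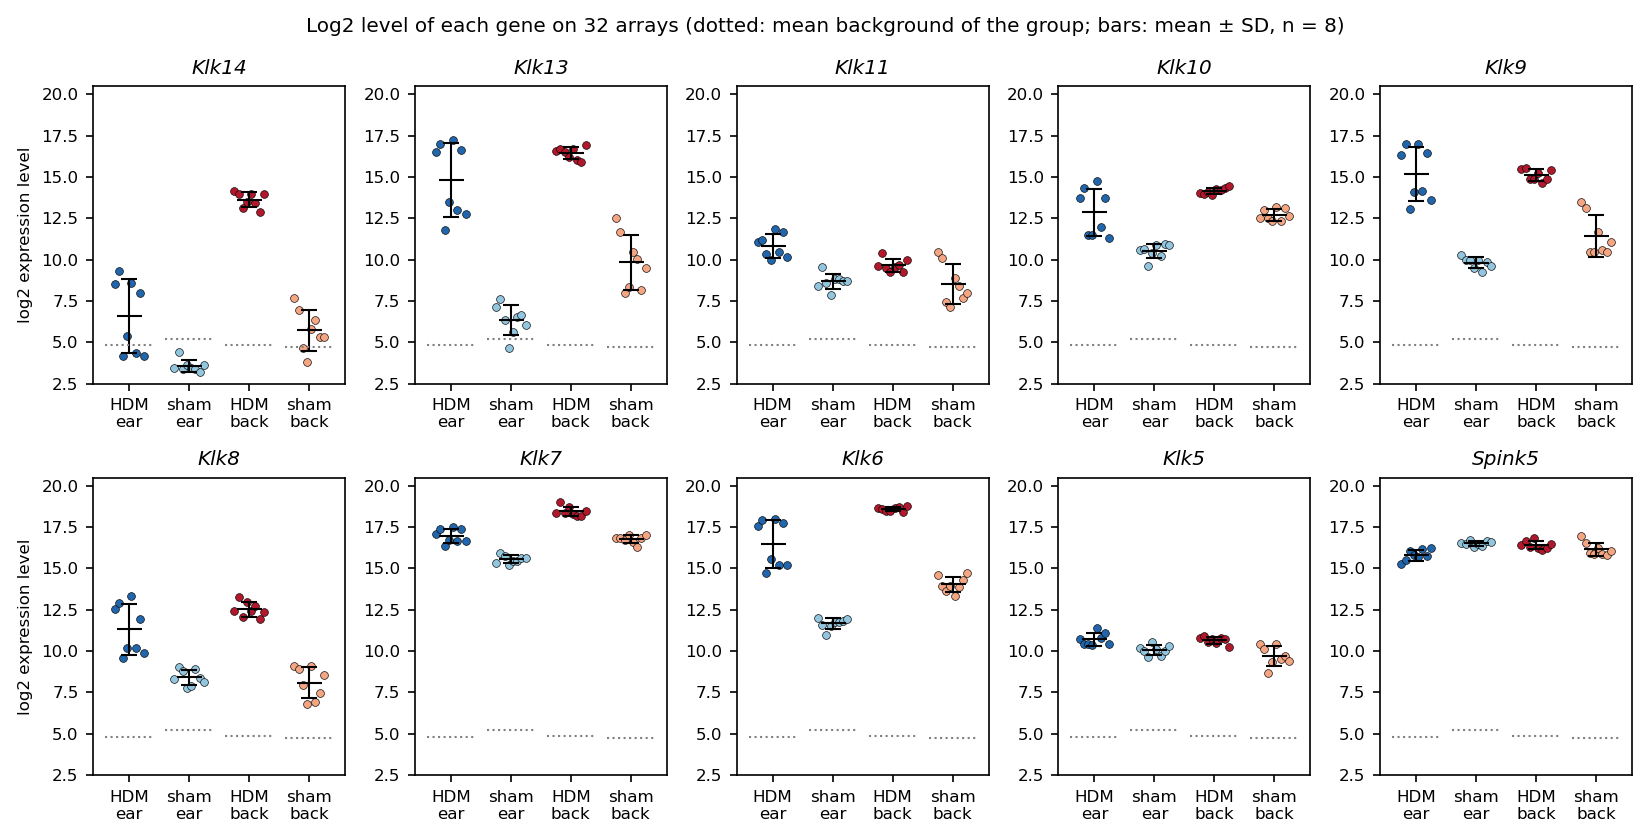
Log2 expression level (vertical axis) of each gene in 8 HDM ears, 8 sham ears, 8 HDM back skins and 8 sham back skins, with 1 point per array, the mean ± SD in black and the group's mean background dotted. HDM means lie above sham means for the 9 kallikreins at either site, while Spink5 stays between 15.26 and 16.95 on every array.

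Klk5 encodes a trypsin-like protease that, in human epidermis, can activate itself and other kallikreins and thus stands at the head of the cascade. Its levels were 10.38, 10.59 and 11.40 in HDM ears (lowest, median and highest), against 9.66, 10.04 and 10.52 in sham ears. In back skin they were 10.26, 10.72 and 10.93 with HDM, against 8.69, 9.60 and 10.43 with sham. Ranges overlapped at either site, although all 8 HDM arrays lay above the sham mean. The differences were the smallest of the 9 kallikreins, 0.66 ± 0.20 in ear (SE, n = 8 per group, limma adjusted p = 0.00897) and 0.96 ± 0.20 in back skin (adjusted p = 0.000829), or 1.58-fold and 1.94-fold.

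Klk7, the chymotrypsin-like enzyme of the stratum corneum that cuts corneodesmosin and desmocollin, differed more evenly between arrays. Its levels ran from 16.34 to 17.48 with a median of 16.88 in HDM ears, against 15.23 to 15.93 with a median of 15.54 in sham ears. HDM back skins held 18.18 to 19.02, with a median of 18.36, against 16.32 to 17.05, with a median of 16.86, in sham back skins. At neither site did the groups overlap, and the SD within groups was at most 0.42. Klk7 rose by 1.40 ± 0.16 in ear (adjusted p = 4.77e-08) and by 1.68 ± 0.16 in back skin (limma adjusted p = 4.33e-09).

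Klk14, a trypsin-like protease that in human epidermis contributes much of the trypsin-like activity and can activate the receptor PAR2, differed most between sites. In HDM ears its levels were 4.17, 6.68 and 9.30 (lowest, median and highest), against 3.18, 3.41 and 4.41 in sham ears, all 8 of which were under background. In HDM back skins they were 12.90, 13.71 and 14.17, against 3.82, 5.57 and 7.66 in sham back skins. Back skin groups lay far apart, whereas in ear the lowest HDM arrays reached into the sham range. The back skin rise was 7.89 ± 0.62 (237-fold, limma adjusted p = 1.29e-10), the largest of the 10 genes there. In ear Klk14 was at least 2.57-fold higher, with the background standing in for the sham level (adjusted p = 0.000259). Its fitted ear difference, which takes the sham values under background as they stand, was 3.01 ± 0.62, and 1.63 when lower values were set to the background.

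Klk13, its neighbour in the cluster and a trypsin-like protease in human, had the largest difference of the 10 genes in ear. Levels in HDM ears were 11.77, 14.99 and 17.24 (lowest, median and highest), against 4.66, 6.42 and 7.59 in sham ears. HDM back skins had 15.90, 16.54 and 16.93, against 7.97, 9.76 and 12.50 in sham back skins. HDM and sham arrays lay far apart at either site. The rise was 8.47 ± 0.69 in ear (355-fold, limma adjusted p = 1.37e-10) and 6.61 ± 0.69 in back skin (97.8-fold, adjusted p = 5.15e-08).

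Klk6, a trypsin-like protease best known from the nervous system and also made by keratinocytes, rose about equally at the 2 sites. HDM ears had 14.72, 16.55 and 18.01 (lowest, median and highest), against 11, 11.76 and 12 in sham ears. HDM back skins had 18.44, 18.62 and 18.80, against 13.31, 13.93 and 14.71 in sham back skins. Among the 10 genes and 4 groups, its HDM back skin arrays had the smallest SD, 0.13. The differences were 4.81 ± 0.37 in ear (limma adjusted p = 2.47e-11) and 4.57 ± 0.37 in back skin (adjusted p = 1.88e-10), 28.1-fold and 23.8-fold.

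Klk8, also called neuropsin, is a trypsin-like protease of brain and of epidermis. In HDM ears its levels were 9.55, 11.05 and 13.32 (lowest, median and highest), against 7.78, 8.35 and 9.06 in sham ears. In HDM back skins they were 11.94, 12.42 and 13.29, against 6.77, 8.24 and 9.10 in sham back skins. The gap between groups was narrow in ear and wide in back skin. Klk8 rose by 2.91 ± 0.45 in ear (adjusted p = 7.64e-06) and by 4.43 ± 0.45 in back skin (limma adjusted p = 3.30e-08).

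Klk9, a less studied member, had levels of 13.04, 15.21 and 17.00 in HDM ears (lowest, median and highest), against 9.25, 9.90 and 10.29 in sham ears. HDM back skins had 14.61, 15.05 and 15.52, against 10.45, 10.85 and 13.50 in sham back skins. The 2 highest sham back skins, at 13.14 and 13.50, were those of mice 2 and 1. The differences were 5.39 ± 0.50 in ear (42-fold, limma adjusted p = 1.52e-09) and 3.68 ± 0.50 in back skin (12.8-fold, adjusted p = 3.33e-06).

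Klk10 and Klk11, whose genes adjoin each other, rose less than Klk6, Klk8, Klk9 and Klk13 at either site, and more than Klk5. Klk10 had 11.31, 12.85 and 14.74 in HDM ears (lowest, median and highest), against 9.64, 10.62 and 10.95 in sham ears, and rose by 2.32 ± 0.36 (limma adjusted p = 8.91e-06). In back skin it had 13.90, 14.14 and 14.48 with HDM, against 12.31, 12.57 and 13.16 with sham, and rose by 1.47 ± 0.36 (adjusted p = 0.00526). Neither site showed an overlap for Klk10. Klk11, a trypsin-like protease in human, had 9.98, 10.73 and 11.87 in HDM ears, against 7.85, 8.71 and 9.52 in sham ears, and rose by 2.14 ± 0.36 (limma adjusted p = 2.58e-05). In back skin Klk11 had 9.25, 9.59 and 10.38 with HDM, against 7.12, 8.19 and 10.46 with sham, and its rise of 1.15 ± 0.36 was the weakest call of the 9 (adjusted p = 0.0292). The sham back skins of mice 1 and 2, at 10.46 and 10.07, lay among or above the HDM arrays. Without them the rise of Klk11 was 1.74, and with only the 16 back skin arrays in the fit it was no longer called (adjusted p = 0.0638).

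**Figure D2:**
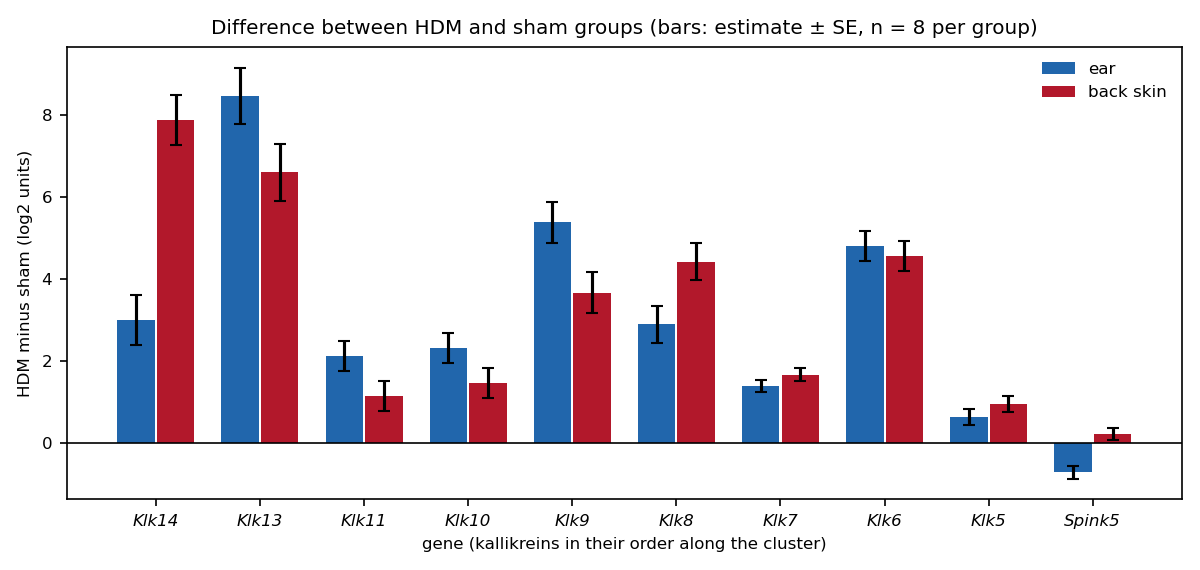
HDM minus sham on the log2 scale (vertical axis) for each gene in ear and in back skin, as bars with their SE, n = 8 per group, with the kallikreins in their order along chromosome 7. The bars run from 0.66 for Klk5 to 8.47 for Klk13 in ear and from 0.96 for Klk5 to 7.89 for Klk14 in back skin, and the Spink5 bar is below 0 in ear only. The ear bar of Klk14 is the fitted difference, with all sham ears under background, and is not a measured size.

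Spink5, the inhibitor gene, moved otherwise. In HDM ears its levels were 15.26, 15.78 and 16.22 (lowest, median and highest), against 16.32, 16.50 and 16.71 in sham ears. Every HDM ear lay below every sham ear. Spink5 fell by 0.70 ± 0.15 in ear, or 1.63-fold lower (limma adjusted p = 0.000388). HDM back skins had 16.14, 16.36 and 16.81, against 15.82, 16.02 and 16.95 in sham back skins, with wide overlap. The back skin difference was 0.23 ± 0.15 (95% interval -0.07 to 0.54, adjusted p = 0.328). The highest sham back skins for Spink5 were again those of mice 1 and 2, at 16.95 and 16.56, and without them Spink5 was called higher by 0.43 (limma adjusted p = 0.0305). Over all alternatives tried, its adjusted p in back skin ran from 0.0305 to 0.383.

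The change of each protease gene relative to Spink5 was taken from the difference of the 2 log2 values on the same array, which cancels array scaling. Only the change of that difference between HDM and sham was read, with exact two-sided permutation tests of 8 against 8, adjusted over 18 tests. In ear the difference was higher in HDM for all 9 proteases, by 1.36 ± 0.24 for Klk5 (exact permutation adjusted p = 0.00035), 2.10 ± 0.25 for Klk7 (adjusted p = 0.000215) and 9.18 ± 0.94 for Klk13 (adjusted p = 0.000215). The smallest p the exact permutation test allows is 0.000155 before adjustment. In back skin it was also higher for all 9, by 0.72 ± 0.18 for Klk5 (exact permutation adjusted p = 0.00165), 0.91 ± 0.34 for Klk11 (adjusted p = 0.0191), 1.44 ± 0.16 for Klk7 and 7.66 ± 0.37 for Klk14 (each adjusted p = 0.000215). Protease and inhibitor transcripts thus changed unequally at either site, by least for Klk5. In ear this follows from the rises and the fall given above. The tests use the same values as those calls and are no separate support for them.

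Klk6, Klk7, Klk8, Klk9, Klk10, Klk13 and Klk14 had their largest SD in HDM ears, and Klk5, Klk11 and Spink5 in sham back skins. With only the 16 ear arrays in the fit, all 10 genes stayed called in ear, and adjusted p was larger for all but Klk5. The limma adjusted p was then 9.19e-07 for Klk13, 2.04e-06 for Klk6 and 0.00371 for Klk14, against 1.37e-10, 2.47e-11 and 0.000259 with all 32 arrays. For 8 of the 9 kallikreins, all but Klk5, the 4 highest HDM ears were those of mice 1, 2, 5 and 7. Klk13 lay between 16.48 and 17.24 in these mice and between 11.77 and 13.51 in mice 3, 4, 6 and 8. Klk6 lay between 17.56 and 18.01 and between 14.72 and 15.54 in the same mice. Spink5 ran the other way, at 15.26 to 15.75 in mice 1, 2, 5 and 7 and at 15.80 to 16.22 in the other 4. On the same arrays, the mean of 7 neutrophil markers was 14.07 to 15.58 in mice 1, 2, 5 and 7 and 9.34 to 11.44 in the other 4, while that of 5 basal keratinocyte markers was 15.42 to 16.12 and 16.99 to 17.14. Macrophage markers were also higher in mice 1, 2, 5 and 7 (11.67 to 12.33 and 10.28 to 11.37). Sebaceous gland (9.4 to 10.5 and 11.4 to 11.6) and cartilage markers (5.39 to 5.74 and 5.99 to 6.52) were lower there. The means of suprabasal and granular keratinocyte, hair follicle, skeletal muscle and sweat gland lists did not split by these mice. These splits were read from the values themselves and carry no test.

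**Figure D3:**
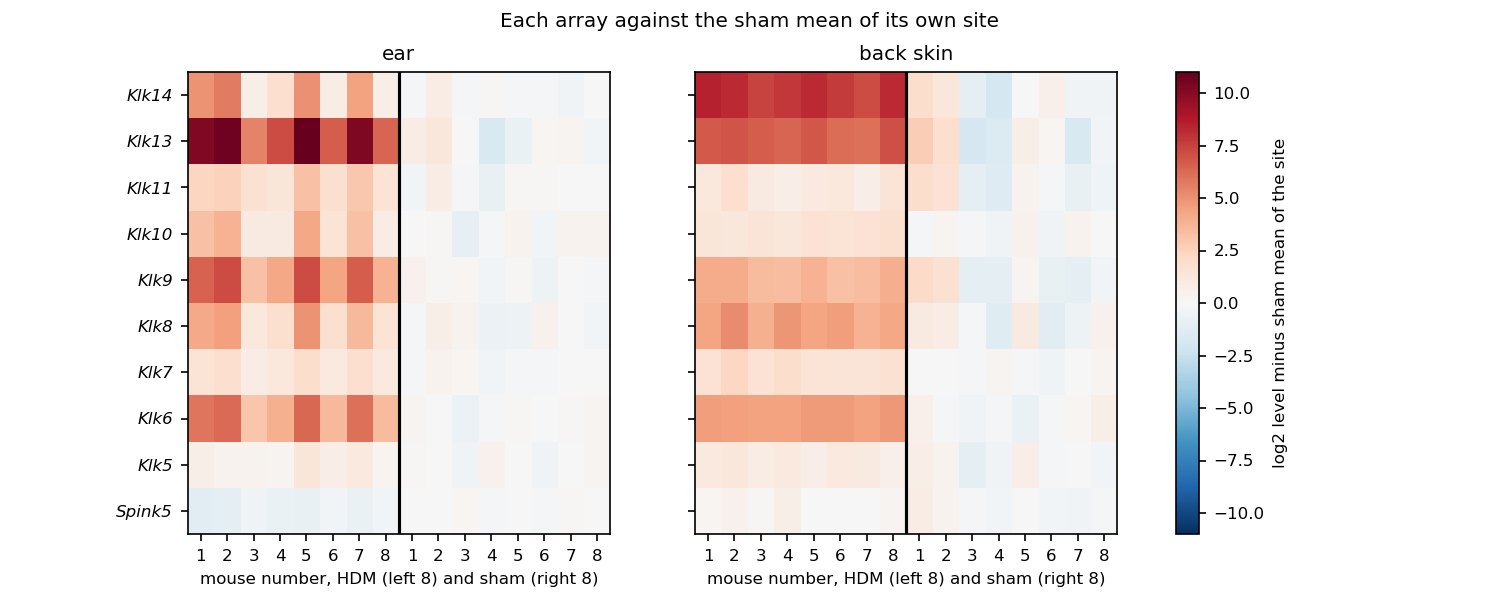
Log2 level of each gene on each array minus the mean of the 8 sham arrays of the same site (colour), with ear on the left, back skin on the right, HDM mice 1 to 8 left of sham mice 1 to 8 in each panel. HDM back skins look alike, HDM ears of mice 1, 2, 5 and 7 are darker than those of mice 3, 4, 6 and 8 for 8 kallikreins, and Spink5 stays pale, blue in HDM ears.

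**Figure D4:**
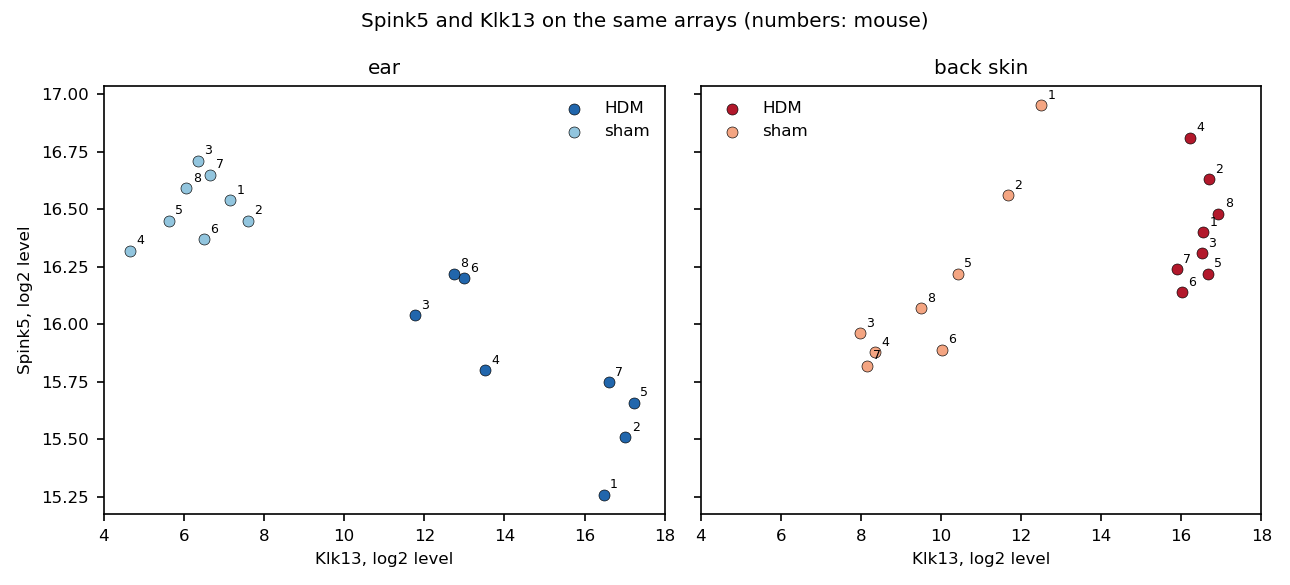
Log2 level of Spink5 (vertical axis) against that of Klk13 (horizontal axis) on each array, for ear and back skin, with mouse numbers beside the points. In ear the 4 HDM points with Klk13 between 16.48 and 17.24 have Spink5 at 15.75 or lower, and in sham back skin the points of mice 1 and 2 are the highest sham points for either gene.

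Other markers moved with HDM as well, and their part in the kallikrein results was not tested. All 7 measured neutrophil markers rose in ear and in back skin, with array means of 9.34 to 15.58 in HDM ears against 4.41 to 6.00 in sham ears, and 10.64 to 12.35 in HDM back skins against 5.54 to 8.55 in sham back skins. S100a8 and S100a9 differed most of the 7, by 11.81 and 12.03 in ear and by 7.69 and 8.57 in back skin, and weigh on these means. The number of neutrophils was not measured. All 5 macrophage markers rose in ear, with array means of 10.28 to 12.33 in HDM ears against 8.75 to 9.23 in sham ears, and 0 of 5 in back skin. Of 5 suprabasal and granular keratinocyte markers, 2 rose and 2 fell in ear, and 1 rose and 2 fell in back skin. Their array means were 14.81 to 15.26 in HDM ears against 14.04 to 14.70 in sham ears, and 15.06 to 16.17 in HDM back skins against 15.23 to 16.29 in sham back skins. Casp14 and Lor are named after their values were seen. Casp14, a protease of cornifying keratinocytes, rose by 3.56 ± 0.44 in ear and 2.57 ± 0.44 in back skin, whereas Lor, the cornified envelope gene for loricrin, fell by 1.76 ± 0.39 in ear and fell by 1.23 ± 0.39 in back skin. Of 5 basal keratinocyte markers, 1 rose and 2 fell at each site. Basal array means were 15.42 to 17.14 in HDM ears against 17.23 to 17.61 in sham ears, and 16.04 to 16.45 in HDM back skins against 16.26 to 17.04 in sham back skins. All 6 skeletal muscle markers fell in ear and 0 in back skin, 3 of 5 cartilage markers fell in ear and 0 in back skin, and 1 of 6 sebaceous gland markers fell in ear and all 6 in back skin. Of 12 hair follicle markers, 2 fell in ear and 0 in back skin. Of 3 genes listed as sweat gland markers, Krt77 fell at each site and Aqp5 rose in back skin. The remaining gene, Foxa1, was under background in all 4 groups. Krt77 had means of 7.555 in HDM and 17.48 in sham back skins, and of 5.86 in HDM and 10.67 in sham ears. Sweat glands themselves were not measured, and whether these genes stand for them in this skin was not tested.

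A direct test of the site difference asked for which genes the HDM effect differed between ear and back skin. It was called for 2 of the 10 genes, Klk14 and Spink5, each with the lower effect in ear, where 3.37% of all rows were called lower and 10.1% in either direction. For Klk14 the ear minus back skin difference of effects was -4.88 ± 0.87 (limma adjusted p = 0.000511), and -6.14 when lower values were set to the background. That setting also moved the median of all rows, to -0.41 from -0.01, and called 2314 rows higher and 9789 lower, against 1503 and 748 as reported. For Spink5 it was -0.94 ± 0.21 (limma adjusted p = 0.00399). The other 8 kallikreins did not pass, with differences between -1.52 ± 0.64 for Klk8 (adjusted p = 0.129) and 1.86 ± 0.98 for Klk13 (limma adjusted p = 0.247). Under the setting that called so many more rows, Klk8 and Klk9 passed too (limma adjusted p = 0.0475 and 0.0433), with no change in their own differences.

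Sham ears were set against sham back skins to ask how the genes differ between sites without HDM. Of the 10 genes, 6 were called lower in ear and 0 higher, against 14.1% of all rows called lower and 29.7% in either direction. Sham ears and sham back skins did not overlap for 5 of the 9 kallikreins, as for 8.83% of all rows with a symbol. Klk13 was lower in sham ear by 3.50 ± 0.69 (11.3-fold, limma adjusted p = 0.00018), with 6.32 ± 0.91 in sham ears and 9.82 ± 1.67 in sham back skins (SD, n = 8 each). Klk6, Klk10, Klk9 and Klk7 differed by -2.36 ± 0.37, -2.17 ± 0.36, -1.63 ± 0.50 and -1.23 ± 0.16, and Klk14, under background in all sham ears, was at least 1.45-fold lower. For Klk9 the call was lost without sham back mice 1 and 2 (-0.998, adjusted p = 0.11), and for Klk14 when lower values were set to the background (-0.66, adjusted p = 0.282), a setting under which the median of all rows was 0.47 between these groups. Spink5 differed by 0.34 ± 0.15 (limma adjusted p = 0.0862), and by 0.54 without sham back mice 1 and 2 (adjusted p = 0.00271). All 12 hair follicle markers were lower in sham ears than in sham back skins, with array means of 4.65 to 7.44 in sham ears against 7.94 to 16.34 in sham back skins, and their part in these differences was not tested.

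HDM ears set against HDM back skins gave 6 genes lower and 1 higher in ear, against 11.2% and 16.8% of all rows, or 28% in either direction. All 12 hair follicle markers were again lower in ear, with array means of 4.15 to 5.87 in HDM ears against 13.47 to 15.40 in HDM back skins, and their part was not tested. Klk14 was lower by 7.06 ± 0.62 (limma adjusted p = 1.10e-10), Klk6 by 2.12 ± 0.37 and Klk7 by 1.5 ± 0.16, and HDM ears and HDM back skins overlapped for none of these 3 genes, where 8.21% of all rows with a symbol did not overlap. Klk11 was the gene that was higher in HDM ear, by 1.18 ± 0.36 (limma adjusted p = 0.0135), with 10.83 ± 0.71 in HDM ears and 9.65 ± 0.38 in HDM back skins (SD, n = 8 each). Klk8, Klk10 and Spink5 were lower by 1.21 ± 0.45, 1.31 ± 0.36 and 0.60 ± 0.15. The call of Klk8 (adjusted p = 0.0428) was lost when lower values were set to the background (adjusted p = 0.0519) and with a trend and robust variance (adjusted p = 0.0515). For Klk5, Klk9 and Klk13 no difference was called, with 95% intervals of -0.34 to 0.46, -0.93 to 1.10 and -3.06 to -0.23. For Klk13 the difference of -1.64 ± 0.69 (limma adjusted p = 0.0771) was called without sham back mice 1 and 2 (adjusted p = 0.0484). The difference itself did not change, since those arrays are in neither group and enter only the shared spread and the adjustment.

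By mean level the 4 groups fell into different orders. Klk6 and Klk7 ran HDM back skin, HDM ear, sham back skin, sham ear from high to low, and so did Klk10, Klk13 and Klk14. For Klk6 no neighbouring ranges in that order overlapped. For Klk7, Klk10, Klk13 and Klk14 the ranges of HDM ear and sham back skin overlapped, as did those of HDM back skin and HDM ear for Klk10 and Klk13 and those of sham back skin and sham ear for Klk14. Klk5, Klk8, Klk9 and Klk11 had HDM ear and HDM back skin at the top with overlapping ranges. Spink5 ran sham ear, HDM back skin, sham back skin, HDM ear, with each neighbouring pair overlapping.

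Across the 32 arrays the 36 pairs of kallikreins had Pearson correlations from 0.374 to 0.976, with a median of 0.802, and the highest was that of Klk9 and Klk13. Spink5 correlated with the 9 kallikreins at -0.329 to 0.039. These values describe arrays that share groups and sites and are no test. Of 11717 other genes above background on at least 16 arrays, those with the pattern most like Klk7 were Rbp2 (r = 0.939), Gpx2 (0.933) and Cstb (0.932). Most like Klk14 were Aldh1a3 (r = 0.947), Lgi2 (0.943) and Saa3 (0.927). Spink5 was followed most closely by Daam1 (r = 0.820), Dhx57 (0.805) and Sbsn (0.804).

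The counts of the gene lists stand beside 16.4% of all rows called higher and 15.5% lower in ear, and 6.18% higher and 8.56% lower in back skin. Of 15 further kallikrein genes measured, 13 in back skin and 14 in ear were under background in HDM and sham alike. Klk12, which lies among the members in the cluster, was at least 3.01-fold higher in HDM back skins, with 6.31 ± 0.67 there against 4.33 ± 0.24 in sham back skins (SD, n = 8 each, limma adjusted p = 3.54e-06). In ear Klk12 was called higher (adjusted p = 0.0137), but with 5 of 8 HDM ears and 0 of 8 sham ears above background no fold is given. Klk15 was at least 1.12-fold lower in HDM back skin (adjusted p = 0.0248). Klk1b24 and Klk1b16 were called higher in ear with either group under background, so no fold is given.

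Of 11 other Kazal-type inhibitor genes, 0 rose and 1 fell in back skin, and 1 rose and 1 fell in ear. Spink1 fell by 0.44 ± 0.15 in ear and by 0.44 ± 0.15 in back skin (limma adjusted p = 0.0244 and 0.0496), and Spink7, called higher in ear, was under background in all sham ears. Other inhibitors of skin proteases moved in either direction, with 3 of 8 higher and 2 lower in ear and 2 higher and 1 lower in back skin. Wfdc12 and Wfdc5, of the WAP-domain inhibitor family, rose by 4.70 ± 0.56 and 2.07 ± 0.28 in ear, and Wfdc5 by 1.15 ± 0.28 in back skin. Serpina12, which encodes vaspin, an inhibitor of human KLK7, fell by 3.07 ± 0.52 in ear and by 1.85 ± 0.52 in back skin (limma adjusted p = 2.10e-05 and 0.0124). Wfdc12 rose by more in ear than in back skin, by 3.67 ± 0.80 (limma adjusted p = 0.00308). Spint2, the gene of a Kunitz-type inhibitor, rose by 0.40 ± 0.13 in back skin.

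Of 9 upstream protease genes, 4 rose in ear and 2 in back skin, and 0 fell. Ctsl, a lysosomal cysteine protease gene, rose by 1.48 ± 0.24 in ear and 1.60 ± 0.24 in back skin, and Plau, the urokinase gene, by 1.36 ± 0.27 and 1.03 ± 0.27. Tmprss13, a membrane serine protease gene, rose by 1.11 ± 0.19 in ear. The lists of called upstream genes did not include St14 or Prss8, which encode matriptase and prostasin and were looked up after their values were seen, with differences of -0.15 ± 0.25 and 0.37 ± 0.24 in ear and of 0.14 ± 0.25 and -0.28 ± 0.24 in back skin.

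Among 13 corneodesmosome and desmosome genes, some of whose products are cut by kallikreins, 3 rose and 2 fell in ear, near the shares of all rows, and 3 rose and 0 fell in back skin. Dsg3, a desmoglein of basal layers, rose by 1.85 ± 0.16 in ear and by 0.97 ± 0.16 in back skin, and the rise was larger in ear (difference 0.88 ± 0.23, limma adjusted p = 0.0107). Dsc2, a desmocollin gene, rose by 2.40 ± 0.60 in ear, and Dsg1a, a desmoglein of upper layers, fell by 1.49 ± 0.31 there. In back skin Dsg1b and Dsc1 rose by 0.66 ± 0.16 and 0.62 ± 0.14. Of 6 other targets and downstream genes, 2 rose and 1 fell at each site. Il1b, a cytokine precursor, was at least 64.9-fold higher in HDM ears and rose by 3.84 ± 0.88 in back skin, and Flg2, a filaggrin-like barrier gene, fell by 6.79 ± 1.18 in ear and fell by 4.1 ± 1.18 in back skin. HDM ears varied widely for Flg2, at 11.6 ± 4.93, against 18.4 ± 0.183 in sham ears (SD, n = 8 each). Smpd1, the gene of acid sphingomyelinase, rose by 0.80 ± 0.19 in ear, and F2r, the gene of the thrombin receptor, by 0.87 ± 0.21 in back skin.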

How the data were processed

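Total RNA of 32 mouse skin samples was measured on Affymetrix arrays, which the series names as Mouse Clariom D, with 8 samples in each of 4 groups. The authors deposited log2 values from RMA, run in Transcriptome Analysis Console per the submitters' notes on processing. No version, build or annotation release was stated there. Of 28846 rows, 6640 array controls were left out, and 22206 rows were tested, of which 19572 carry 1 symbol and 0 carry several.

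Group means of all 32 arrays were fitted with limma 3.58.1 in R 4.3.3 (lmFit, eBayes, two-sided moderated tests, median 32.1 degrees of freedom), with 1 spread per row shared by the 4 groups. Adjusted p-values are Benjamini-Hochberg over all 22206 rows, and a gene was called under 0.05. The fit and the exact permutation test were tested on simulated data. A gene at or under the array's negative control median on all 8 arrays of a group counts as below background there. Differences are given ± SE and levels as mean ± SD or lowest, median and highest. The number of arrays limits the precision. The labels give no batch or scan date. P-values set a difference against the spread between samples, and the main fit takes the 32 arrays as independent. The labels do not say whether numbered mice recur across sites. If they do, the main p-values between sites and for the difference of effects leave that pairing out. Alternatives were equal array medians, a filter on dim rows, low values set to the background, trend and robust variances, mouse number or animal as a block, leaving out sham back mice 1 and 2, and fits within a site.

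The genes and gene lists were chosen with earlier results of these data known. The 10 members were named with all values. From each other list at most the 3 called genes with the largest difference per comparison were named, and the lists that were used are other kallikreins, Kazal-type inhibitors, other inhibitors, upstream proteases, junction targets, other targets and cell type markers. Not measured under these symbols were 2 of 17 kallikreins, 1 of 9 inhibitors, 1 of 10 upstream proteases and 4 of 10 other targets.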

Additional observations from a re-analysis of the deposited data

Results flagged for a closer look

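The HDM effect on Klk14 was lower in ear than in back skin by a value of -4.88 on the log2 scale in the direct test of the difference, the larger of the 2 gaps between sites that passed among the 10 genes. All 8 sham ears lay under background for Klk14, so the fitted ear effect of 3.01 in this gap is not a measured size. When lower values were set to the background the ear effect was 1.63 and the gap -6.14, while the median gap of all rows moved to -0.41.

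The HDM effect on Spink5 differed between sites by -0.94, with a fall in ear and no call in back skin.

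In 40 groups of 8 values, 1 held an array apart from the rest: for Klk14 in sham ear the highest array, that of mouse 2 at 4.41, lay at a gap of 0.618 of the group's range, above Dixon's critical value for 8 samples. It was still under background. Chance alone flags about 1 in 20 such groups.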

How the results depend on the processing

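Of 370 values of single genes under the alternatives, 353 kept their direction and side of the threshold, 12 gained a call, 5 lost it and 0 changed sign. The dim-row filter, trend and robust variances, blocks and fits within a site left each difference unchanged, so no sign could change there. Leaving out sham back mice 1 and 2 likewise left the differences without sham back skins unchanged. The counts of called genes stayed within 1.5 times the reported ones in all 5 comparisons under all alternatives but 1. When lower values were set to the background, 4 genes in place of 2 differed between sites in their HDM effect. That setting called 2314 of all rows higher and 9789 lower there (1503 and 748 as reported), 3641 and 12221 in ear (3638 and 3438) and 12119 and 3127 between sham sites (3469 and 3124), and moved the median of all rows to -0.41, -0.38 and 0.47, and to 0.12 in back skin. Under that setting a dim row takes the background of its own array. The mean background was 5.20 in sham ears, 4.82 in HDM ears, 4.84 in HDM back skins and 4.72 in sham back skins. What part these backgrounds had in the moved medians was not tested. Making array medians equal moved the median difference of all rows from 0.01 to 0.13 in back skin, from 0.04 to 0.16 between sham sites and from -0.01 to -0.13 for the difference of effects. All rows called higher and lower then numbered 2433 and 1392 in back skin (1372 and 1901 as reported), 5063 and 2462 between sham sites (3469 and 3124) and 1105 and 1310 for the difference of effects (1503 and 748), while among the 10 members the calls that changed were between sham sites, where Klk5 and Spink5 were then also called higher in ear (0.49 and 0.46). Without sham back mice 1 and 2, all 10 genes were called higher in back skin and 8 between sham sites, with Klk5, Klk11 and Spink5 higher (0.55, 0.77 and 0.54). Klk13 was then called lower in HDM ear than in HDM back skin (limma adjusted p = 0.0484), with no change in its difference.

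Over 16 same-numbered pairs of ear and back skin of 1 agent, the correlation of deviations from group means ran from -0.113 to 0.14. It exceeded 0.1 in 1 pair and was the best match in 2. Deviations particular to a site could hide a shared animal, so these values cannot decide whether equal numbers name the same animal. With mouse number as a replicate block, 9 genes were called in back skin, 10 in ear, 3 for the difference of effects (Klk9 added), 6 between sham sites and 8 between HDM sites (Klk13 added). With the animal as a random block the counts were 9, 10, 2, 6 and 7. All 18 changes relative to Spink5 stayed called without sham back mice 1 and 2 and with low values set to the background, where that of Klk14 in ear was 2.33 in place of 3.71. Each symbol had 1 row, so the mean over several rows could not be tried. Signal near background limits Klk14 in ear.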
